A study of Mus musculus with 9 samples.

Results

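Exosomes of mouse tubular cells that overexpressed BMAL1 were compared with those of cells that carried an empty virus, both after hypoxia-reoxygenation (H/R). The comparison takes 6 of the 9 libraries of the series, 3 of H/R-LV-BMAL1 and 3 of H/R-LV-NC, chosen by their labels, and describes all 1978 mature miRNAs of the deposited table by abundance, hairpin arm and genomic cluster. The cells were TCMK-1, an immortal line from the tubular epithelium of C3H mouse kidney, stably infected with the lentivirus LV-BMAL1 or with the empty vector LV-NC at a multiplicity of infection of 100. Both groups spent 24 h at 1% O2 and 12 h at 21% O2 in medium free of exosomes, and both viruses also carry EGFP and a puromycin resistance gene. The remaining 3 libraries, LV-NC, had the empty virus and no H/R. They set the abundance classes and add to the estimate of spread. BMAL1 was driven by a viral promoter in a single line, and the labels do not tell whether the replicates of a group were cultured separately, so all p-values refer to the spread among these libraries, part of which may be technical. Small RNA libraries do not measure Bmal1 mRNA, so its overexpression could not be checked in these data.

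BMAL1 is the transcription factor that, together with CLOCK, binds E-box elements and drives the circadian clock, and it also activates many genes outside the clock. A miRNA gene is transcribed as a long precursor that often holds several hairpins, a genomic cluster. Each hairpin is cut into a 5p and a 3p arm, of which mostly a single one is loaded into an Argonaute protein while the other is degraded. Bases 2 to 8 of the mature miRNA, the seed, select its target mRNAs. Cells export part of their miRNAs in exosomes, small vesicles that other cells can take up. In the kidney such vesicles pass from injured tubules to macrophages.

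The miRNAs that the comparison turned on are listed by sequence, with the seed in capitals. Sequences are from RefSeq (build GRCm38.p6), 5′ to 3′, and 32 of the 36 miRNAs called higher in H/R-LV-BMAL1 exosomes had one. These 32 included 4 groups of shared seed that held 9 miRNAs, namely miR-30, miR-29, miR-195a with miR-497a, and miR-26. The first set gives these groups, with the abundant miR-16-5p added, which has the seed of miR-195a.
miR-30a-5p: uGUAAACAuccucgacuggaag
miR-30c-5p: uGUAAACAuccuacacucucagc
miR-30e-5p: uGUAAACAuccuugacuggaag
miR-29a-3p: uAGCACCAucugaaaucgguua
miR-29c-3p: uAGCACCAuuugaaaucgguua
miR-195a-5p: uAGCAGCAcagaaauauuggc
miR-497a-5p: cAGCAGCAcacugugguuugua
miR-16-5p: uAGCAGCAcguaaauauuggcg
miR-26a-5p: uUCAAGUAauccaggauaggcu
miR-26b-5p: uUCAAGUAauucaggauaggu
The second set gives miRNAs with small p in each abundance class from 100 CPM up, and the 4 that were called lower.
miR-21a-5p: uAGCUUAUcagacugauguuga
miR-155-5p: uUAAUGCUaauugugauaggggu
miR-218-5p: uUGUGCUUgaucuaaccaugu
miR-146b-5p: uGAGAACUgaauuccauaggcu
miR-767: uGCACCAUgguugucugagca
miR-468-5p: gACUGAUGuacugauaagaaacucagu
miR-5124a: gGUCCAGUgacuaagagcau
miR-7649-5p: uGACAGCAgugcuguagacaug
The seed of miR-767, which was lower, is the run GCACCAU, and the same run stands at bases 3 to 9 of miR-29a-3p and miR-29c-3p, which were higher. The third set gives both arms of miR-148a and the 3p arm of miR-185, from the hairpins with the smallest p for a change of arm ratio.
miR-148a-5p: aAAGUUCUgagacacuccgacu
miR-148a-3p: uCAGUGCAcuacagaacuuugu
miR-185-3p: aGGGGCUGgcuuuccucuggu

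Sequencing depth differed between the groups, and single libraries stood apart. The H/R-LV-BMAL1 libraries held 3357851 to 4057046 UMIs (unique molecular identifiers, which count each captured molecule once), against 807158 to 1447040 with H/R-LV-NC. Depth therefore moved with the group, and after every library was thinned to the total of the smallest the test gave 40 miRNAs higher and 12 lower, against 36 and 4 at full depth. In H/R-LV-BMAL1 1, 30 miRNAs stood at no less than 5 times their highest level in any other library, with 50 or more UMIs, and together took 3.17% of its UMIs. The largest was miR-8090, at 9890 CPM (deposited UMIs scaled to a common library total) there and 9.70 to 50.8 CPM in the other 8 libraries. There were 11 such miRNAs in H/R-LV-NC 2, with 1.21% of its UMIs, and 0 to 6 in each of the others. In H/R-LV-BMAL1 3 they included miR-9-5p, known from neural cells, at 2657 CPM against at most 316 CPM elsewhere. Of the markers of the tubular epithelium, miR-30a-5p was abundant, at a mean of 10107 CPM with H/R-LV-BMAL1 and 6592 CPM with H/R-LV-NC, while the epithelial miR-200a, miR-200b, miR-200c, miR-141 and miR-429 3p arms were all under 23 CPM in both group means.
The summed level of the 10 tubular markers was 9713 to 11260 CPM with H/R-LV-BMAL1 and 6831 to 7009 CPM with H/R-LV-NC, which is nearly all miR-30a-5p. Markers of other cell types differed in part. The neural markers summed to 1140 to 5087 CPM with H/R-LV-BMAL1 and 505.5 to 1227 CPM with H/R-LV-NC, with overlap. The 5087 CPM were those of H/R-LV-BMAL1 3, where miR-9-5p had 2657 CPM and miR-128-3p 2367 CPM. In the same order the muscle markers summed to 2901 to 3103 CPM and 2405 to 3197 CPM, also with overlap. The endothelial ones summed to 633.7 to 995.1 CPM and 358.0 to 548.0 CPM, and those of red cells and serum to 189.8 to 246.8 CPM and 317.2 to 417.1 CPM. The 5 leukocyte markers summed to 3051 to 4215 CPM with H/R-LV-BMAL1 and 4922 to 5303 CPM with H/R-LV-NC, nearly all of it miR-342-3p. The 5 mesenchymal markers summed to 21220 to 22410 CPM with H/R-LV-BMAL1 and 17270 to 18450 CPM with H/R-LV-NC. Most of this was miR-143-3p, at means of 13831 and 10268 CPM. In the same order miR-145a-5p had means of 774 and 918 CPM and miR-214-3p of 196 and 251 CPM. For both the groups overlapped in CPM. Their log2 fold changes with TMM scaling were 0.58 and 0.50, and neither passed the test below. The part of all these markers in the results was not tested.

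By edgeR's quasi-likelihood test on the UMI counts, 36 of 1682 tested miRNAs were higher (2.14%) and 4 were lower (0.238%) in H/R-LV-BMAL1 than in H/R-LV-NC exosomes, at a Benjamini-Hochberg adjusted p under 0.05. The 36 were spread very unevenly over abundance, with abundant miRNAs called far more often than scarce ones. Of 83 tested miRNAs at 1000 CPM or more in LV-NC exosomes, 18 were higher and 0 lower. Of 181 at 100 to 1000 CPM, 12 were higher and 0 lower. Of 1116 at 10 to 100 CPM, 6 were higher and 4 lower, and of 302 under 10 CPM 0 were called by edgeR with TMM, while DESeq2 called 7 higher and 10 lower there. Nearly all adjusted p-values of the called miRNAs were 0.0455, close to the threshold. With RLE scaling 0 miRNAs passed by edgeR, with 257 higher and 188 lower at an unadjusted p under 0.05, and all 36 kept a positive value.
These values take the scaling TMM, which sets the bulk of the miRNAs to no change, and most tested miRNAs were scarce. TMM factors were 0.558 to 0.940 in H/R-LV-BMAL1 and 1.05 to 1.72 in H/R-LV-NC libraries. Scaled to total UMIs instead, 38 miRNAs were higher (2.26%) and 481 lower (28.6%). With TMM computed on the 83 abundant miRNAs alone, 30 were higher (1.78%) and 554 lower (32.9%). Over the 1682 miRNAs the median log2 fold change was -0.043 with TMM, -0.87 with total UMIs and -0.97 with TMM on abundant miRNAs. The libraries give shares of the miRNA pool, and the amount of miRNA per vesicle or per cell was not measured.
Under all 3 of these scalings (TMM, total UMIs and TMM on abundant miRNAs) 27 miRNAs were higher (1.61%) and 4 lower (0.238%). RLE and upper quartile scaling are not among the 3, and with each of them edgeR called 0 miRNAs. Without H/R-LV-BMAL1 1 the TMM fit called 127 miRNAs higher and 12 lower, including all 36 and all 4. Without any one of the other 5 libraries it called 0 by edgeR, with 162 to 214 higher at an unadjusted p under 0.05 and a positive log2 fold change for all 36 in each case.

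**Figure D1:**
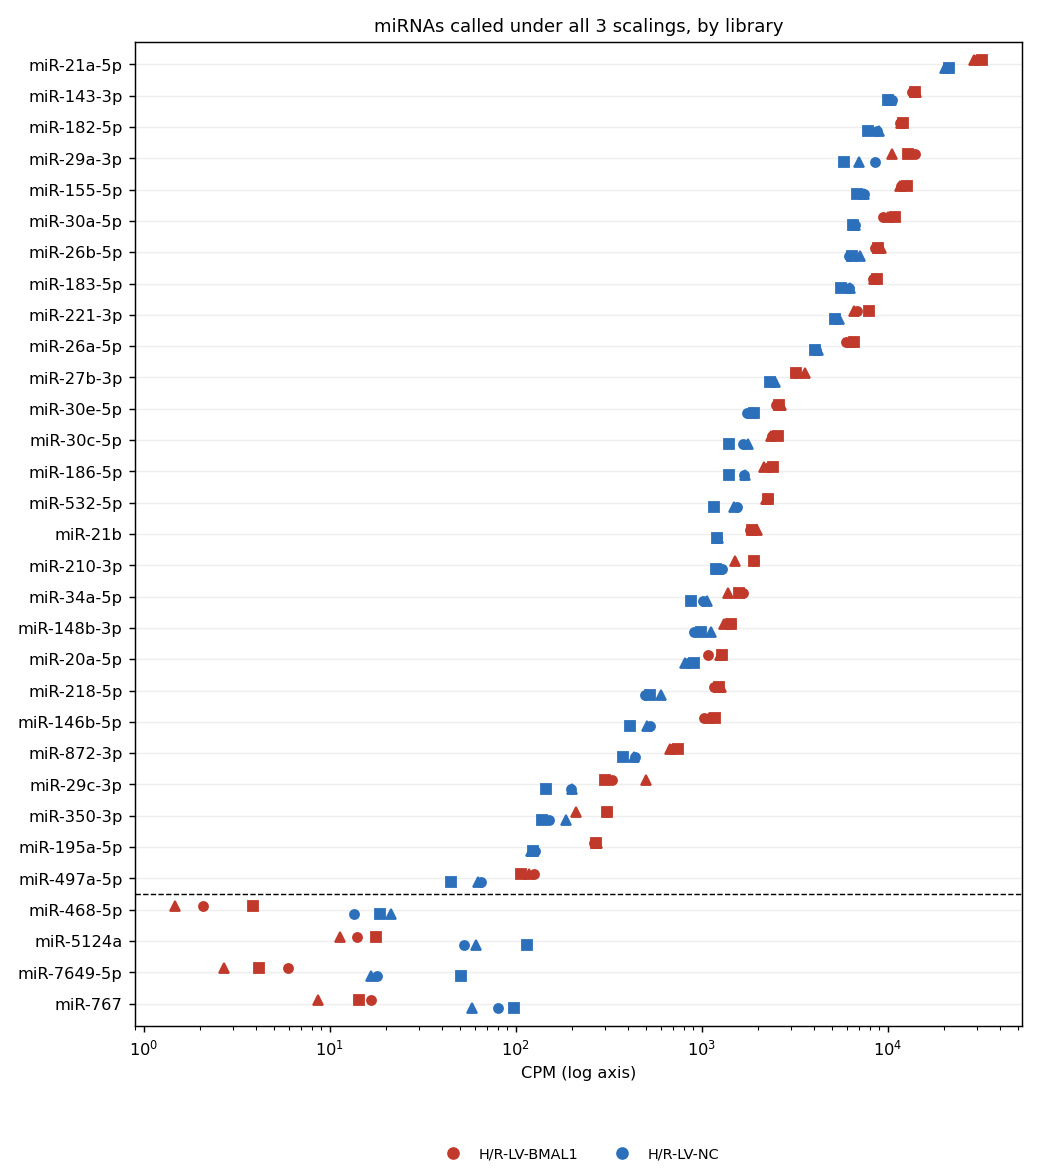
Level of the 27 miRNAs higher (above the dashed line) and the 4 lower (below it) in H/R-LV-BMAL1 than in H/R-LV-NC exosomes under all 3 scalings. The log axis shows CPM computed from the deposited UMI counts. Each point is a library (circle, library 1, square, library 2, triangle, library 3), and the groups do not overlap in any row. Of all 1682 tested miRNAs, 80 were higher without overlap in CPM and 744 were lower without overlap. The 27 run from miR-21a-5p, at 28875 to 32060 CPM in H/R-LV-BMAL1, to miR-497a-5p, at 107 to 124 CPM, while all 4 lower miRNAs are under 20 CPM there.

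Among the most abundant miRNAs, those at 10000 CPM and above in LV-NC exosomes, 2 of 17 passed. miR-21a-5p, a promoter of renal fibrosis that lies in the 3′ part of Vmp1 on chromosome 11 from 86584120, had 29786, 32060 and 28875 CPM with H/R-LV-BMAL1, against 20704, 21203 and 20362 CPM with H/R-LV-NC. The lowest H/R-LV-BMAL1 library was above the highest H/R-LV-NC library. In CPM this held for 7 of the 17, while for 2 the groups were apart in the other direction. On the log2 scale the fold change was 1.39 with TMM (standard error 0.268) and 0.54 with total UMIs. miR-143-3p, which is best known from smooth muscle and fibroblasts, had 13404, 13992 and 14097 CPM with H/R-LV-BMAL1, against 10489, 9991 and 10325 CPM with H/R-LV-NC, and its log2 fold change was 1.28 with TMM and 0.43 with total UMIs.
In this class of 17, 4 were higher and 3 lower by edgeR with total UMIs. miR-125b-5p had 74930, 86477 and 103365 CPM with H/R-LV-BMAL1, against 119395, 112474 and 103249 CPM with H/R-LV-NC. The groups overlap at a single pair of libraries. The log2 fold change came to 0.55 with TMM (adjusted p = 0.279) and -0.34 with total UMIs (adjusted p = 0.0368), both from edgeR. miR-125a-5p, of the same seed, had 25154, 30423 and 38430 CPM with H/R-LV-BMAL1, against 54998, 63857 and 48575 CPM with H/R-LV-NC, with no overlap. Its log2 fold change was 0.093 with TMM and -0.83 with total UMIs (adjusted p = 0.0164 from edgeR). miR-99b-5p, from the same cluster as miR-125a-5p, had 0.56 with TMM and -0.33 with total UMIs.
miR-16-5p, a brake on the cell cycle, had 73708, 74931 and 70926 CPM with H/R-LV-BMAL1, against 66464, 51673 and 58635 CPM with H/R-LV-NC, without overlap, with a log2 fold change of 1.13 (adjusted p = 0.0628 from edgeR). Of the let-7 miRNAs, which hold back growth genes, let-7f-5p and let-7i-5p had log2 fold changes of 1.06 and 1.14 with TMM and 0.21 and 0.30 with total UMIs. let-7a-5p, let-7b-5p, let-7c-5p and let-7e-5p had 0.84, 0.74, 0.86 and 0.97 with TMM, and -0.011, -0.092, 0.032 and 0.11 with total UMIs. None of the 6 was called with TMM.

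The class from 1000 to 10000 CPM held the largest share of called miRNAs, with 16 of 66 higher (24.2%) and 0 lower with TMM. With total UMIs 17 were higher and 14 lower, and with TMM on abundant miRNAs 15 and 15, both by edgeR. miR-155-5p, which acts in macrophage inflammation and lies in Mir155hg, had 11797, 12582 and 11640 CPM with H/R-LV-BMAL1, against 7433, 6817 and 7389 CPM with H/R-LV-NC. On the log2 scale the fold change was 1.58 with TMM (standard error 0.287) and 0.73 with total UMIs. miR-29a-3p, which represses collagen genes, had 13934, 12820 and 10475 CPM with H/R-LV-BMAL1, against 8533, 5793 and 6977 CPM with H/R-LV-NC. The log2 fold change came to 1.58 with TMM and 0.80 with total UMIs.
In CPM both miRNAs were above every H/R-LV-NC library in each H/R-LV-BMAL1 library. This held for 28 of the 66 miRNAs of the class, while 17 were below every H/R-LV-NC library. miR-21b, whose sequence resembles that of miR-21a-5p and whose position is in an intron of Egfem1 on chromosome 3, had 1818, 1851 and 1982 CPM with H/R-LV-BMAL1, against 1205, 1210 and 1225 CPM with H/R-LV-NC. The sources do not say how reads matching both were assigned. The other 13 had log2 fold changes with TMM from that of miR-221-3p, 1.27, to those of miR-30a-5p and miR-26a-5p, 1.47 and 1.46, with miR-532-5p slightly above.
They include the miR-30 members of the kidney tubule, and miR-26a-5p and miR-26b-5p, which lie in introns of the phosphatase genes Ctdsp2 and Ctdsp1. miR-26a-5p had 5979, 6549 and 6290 CPM with H/R-LV-BMAL1, against 4102, 4071 and 4193 CPM with H/R-LV-NC. In the same class miR-8099 had the smallest p among miRNAs with a negative value. It had 710, 536 and 426 CPM with H/R-LV-BMAL1, against 1487, 8850 and 873 CPM with H/R-LV-NC, with a log2 fold change of -1.70 (adjusted p = 0.117 from edgeR), and H/R-LV-NC 2 was its highest library.

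Among miRNAs at 100 to 1000 CPM, 12 of 181 were higher (6.63%) with TMM, and the largest positive log2 fold changes of called miRNAs lay here. With total UMIs 14 were higher and 53 lower, and with TMM on abundant miRNAs 9 and 62, both by edgeR. miR-218-5p, which is encoded in introns of the guidance genes Slit2 and Slit3, had 1167, 1229 and 1273 CPM with H/R-LV-BMAL1, against 495, 524 and 605 CPM with H/R-LV-NC. Its log2 fold change was 2.04 with TMM (standard error 0.314) and 1.17 with total UMIs. miR-146b-5p, which dampens NF-κB signalling, had 1020, 1178 and 1097 CPM with H/R-LV-BMAL1, against 524, 411 and 509 CPM with H/R-LV-NC, with log2 fold changes of 2.02 and 1.19.
For both, each H/R-LV-BMAL1 library was above each H/R-LV-NC library. In CPM this held for 32 of the 181 miRNAs of the class, while for 81 the groups were apart in the other direction. miR-195a-5p, of the cell cycle miRNAs of the miR-15 family, had 261, 268 and 271 CPM with H/R-LV-BMAL1, against 127, 124 and 121 CPM with H/R-LV-NC, with log2 fold changes of 1.96 and 1.10. The other 9 were miR-350-3p, miR-34a-5p, a target of p53, miR-872-5p, miR-872-3p, miR-148b-3p, miR-210-3p, which hypoxia induces, miR-29c-3p, miR-15b-3p and miR-421-3p, with TMM log2 fold changes of 1.32 to 1.93. miR-3097-5p had the smallest p on the negative side, at -1.78 (adjusted p = 0.061 from edgeR).

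Under 100 CPM the called miRNAs were few. At 10 to 100 CPM, 6 of 1116 were higher and 4 lower. miR-497a-5p, the neighbour of miR-195a, had 124, 107 and 118 CPM with H/R-LV-BMAL1, against 64.8, 44.6 and 62.9 CPM with H/R-LV-NC, and alone of the 6 was higher under all 3 scalings. miR-195a-3p had 32.8, 32.4 and 27.9 CPM with H/R-LV-BMAL1, against 11.9, 22.3 and 16.6 CPM with H/R-LV-NC. miR-222-5p, at 1.85 with TMM, had 232, 90.1 and 87.5 CPM with H/R-LV-BMAL1, against 49.9, 71.9 and 71.2 CPM with H/R-LV-NC, and its highest value was that of H/R-LV-BMAL1 1.
miR-7021-5p and miR-6945-5p, at 1.66 and 1.62 with TMM, overlapped between the groups in CPM. miR-219a-5p, which is induced by the clock in the mouse suprachiasmatic nucleus, had 90, 100 and 104 UMIs with H/R-LV-BMAL1, against 24, 17 and 17 UMIs with H/R-LV-NC, or 26.8, 27.7 and 25.6 CPM against 17.9, 21.1 and 11.7 CPM. The 4 that were lower had the same direction and passed under all 3 scalings.
miR-767, in an intron of the GABA receptor gene Gabra3 on the X chromosome, had 16.7, 14.4 and 8.63 CPM with H/R-LV-BMAL1, against 80.4, 97.9 and 58.0 CPM with H/R-LV-NC. On the log2 scale the fold change was -1.76 with TMM (standard error 0.323) and -2.57 with total UMIs. miR-468-5p had 2.08, 3.88 and 1.48 CPM with H/R-LV-BMAL1, against 13.4, 18.6 and 21.4 CPM with H/R-LV-NC, and its log2 fold change with total UMIs was -2.82. miR-5124a and miR-7649-5p had -1.48 and -1.80.
In CPM the H/R-LV-BMAL1 libraries were below all H/R-LV-NC libraries for each of the 4, as they were for 532 of the 1116 miRNAs of this class. Under 10 CPM, edgeR called 68 of 302 lower with total UMIs and 81 with TMM on abundant miRNAs. miR-5123 had 15.2, 16.9 and 14.3 CPM with H/R-LV-BMAL1, against 10.4, 16.1 and 9.67 CPM with H/R-LV-NC, with overlap (log2 fold change 1.26, adjusted p = 0.0655 from edgeR). miR-302b-3p, of embryonic stem cells, had 4, 6 and 3 UMIs with H/R-LV-BMAL1 and 6, 8 and 18 UMIs with H/R-LV-NC (-2.02, adjusted p = 0.0603 from edgeR). miR-27a-3p, which the study followed up and which belongs to the class at 10 to 100 CPM, had 15.8, 22.7 and 21.9 CPM with H/R-LV-BMAL1, against 11.9, 9.91 and 18.7 CPM with H/R-LV-NC. The groups overlapped in CPM, and its log2 fold change was 1.42 with TMM (adjusted p = 0.081 from edgeR) and 0.56 with total UMIs. Without H/R-LV-BMAL1 1 it was 1.68 with TMM (adjusted p = 0.0276 from edgeR). That fit called 127 miRNAs higher, against 36 with all libraries. Leaving out any other single library of the comparison called 0 miRNAs by edgeR with TMM. The sequence of miR-27a-3p is nearly that of miR-27b-3p, which had 3156, 3203 and 3575 CPM with H/R-LV-BMAL1 and was called higher. How reads matching both were assigned is not stated, and a part of miR-27b-3p in the value of miR-27a-3p was not tested.

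Over all tested miRNAs, the log2 fold change rose with abundance. Its median with TMM was -0.15 under 10 CPM, -0.11 at 10 to 100 CPM, 0.37 at 100 to 1000 CPM, 0.92 at 1000 to 10000 CPM and 0.97 at 10000 CPM and above. With total UMIs the 5 medians were -1.02, -0.95, -0.45, 0.062 and 0.11. The zero point depended on the scaling and the distance between classes did not, since the median at 1000 CPM and above exceeded that under 100 CPM by 1.05 with TMM and by 1.04 with total UMIs. The SD of this distance over the 3 H/R-LV-BMAL1 libraries was 0.484. It was 1.02 after every library was thinned to the smallest UMI total, and 1.42 without H/R-LV-BMAL1 1.
All 17 miRNAs of the top class and 59 of the 66 of the next had a positive log2 fold change with TMM, against 497 of 1116 at 10 to 100 CPM. With total UMIs these counts were 11, 37 and 138, and with TMM on abundant miRNAs 9, 32 and 119.

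**Figure D2:**
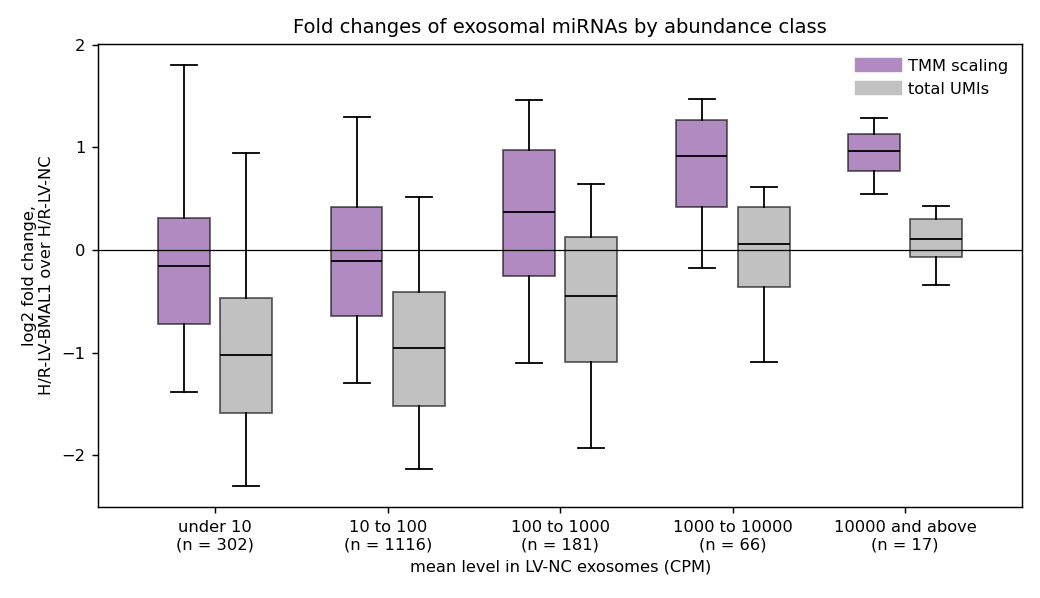
Log2 fold change of tested miRNAs, H/R-LV-BMAL1 over H/R-LV-NC, by mean level in LV-NC exosomes, with TMM (purple) and total UMIs (grey). Boxes span the quartiles with the median as a line, and whiskers span the 5th to the 95th percentile of the miRNAs. The medians with TMM run from -0.15 in the lowest class to 0.97 in the highest, and those with total UMIs from -1.02 to 0.11.

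The share of all UMIs in each class was compared as well, and no class passed the test. miRNAs at 1000 to 10000 CPM held 20.2%, 21.5% and 20.9% of the UMIs in H/R-LV-BMAL1 libraries, against 18.3%, 19.0% and 19.0% in H/R-LV-NC libraries. The groups did not overlap, with a mean of 20.8% ± 0.654 against 18.8% ± 0.421 (SD, n = 3 each), and the two-sided exact permutation p was 0.1, the smallest that 3 against 3 libraries allow (0.5 after adjustment over the 5 classes). The 17 miRNAs at 10000 CPM and above held 69.8% ± 2.73 in H/R-LV-BMAL1 libraries and 70.1% ± 2.83 in H/R-LV-NC libraries (SD, n = 3 each, exact p = 0.9).
The class at 10 to 100 CPM held 7.01%, 2.37% and 1.84% in H/R-LV-BMAL1 libraries, against 3.27%, 6.40% and 4.46% in H/R-LV-NC libraries. Its highest value was that of H/R-LV-BMAL1 1, the library with 30 miRNAs far above their level elsewhere. Without it the mean was 2.11% in H/R-LV-BMAL1 libraries against 4.71% in H/R-LV-NC libraries. The classes at 100 to 1000 CPM and under 10 CPM held 5.11% and 0.481% in H/R-LV-BMAL1 libraries, against 5.86% and 0.599% in H/R-LV-NC libraries, with overlapping groups.

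**Figure D3:**
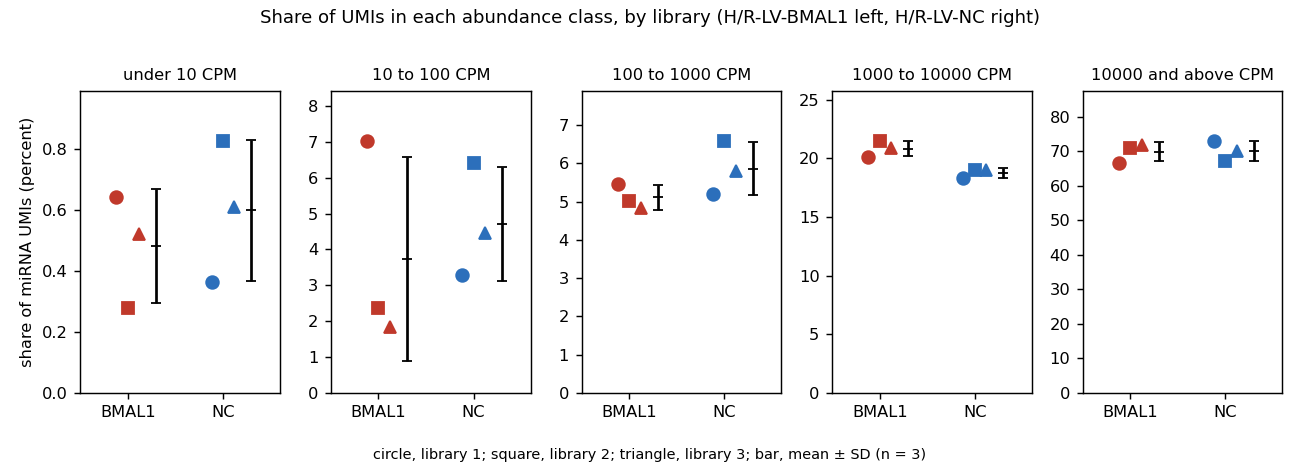
Share of all miRNA UMIs, in percent, that fell in each of 5 abundance classes, by library, with H/R-LV-BMAL1 on the left and H/R-LV-NC on the right of each panel. Symbols mark libraries 1 to 3 and bars the mean ± SD. Only the panel at 1000 to 10000 CPM has groups that do not overlap, and the circle at 7.01% in the panel at 10 to 100 CPM is H/R-LV-BMAL1 1.

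Fold changes also differed with base composition among the abundant miRNAs. Of miRNAs at 100 CPM and above with a sequence, the 99 with under 50% GC had a median log2 fold change of 1.06 and 24 were called higher, while the 59 with 60% GC or more had 0.16 and 1 was called higher. With total UMIs these medians were 0.20 and -0.82. Under 100 CPM the order was the reverse, with medians of -0.26 under 40% GC, -0.21 at 40 to 50%, -0.11 at 50 to 60% and -0.084 at 60% and above. With total UMIs these were -1.17, -1.07, -0.97 and -0.88. miRNAs with the exosome-linked motif GGAG had a median of 0.28 among 35 at 100 CPM and above, against 0.70 for the 196 without it, and those with CCCU 0.26 among 24, against 0.69 for 207. The 11 with AGAAC had 1.15, against 0.58 for 220. These are descriptions, and the motifs are themselves rich or poor in GC.

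The 2 arms of a hairpin come from the same precursor and were compared within each library, so that their ratio does not depend on the scaling between libraries. Of 602 hairpins with both arms tested, 17 (2.82%) changed their 5p to 3p ratio at an adjusted p under 0.05 from limma, 9 toward 5p and 8 toward 3p. In 15 of the 17 the change was toward the arm that was the more abundant in LV-NC exosomes, against 337 of all 602 hairpins.
In miR-148a the 5p arm made up 5.44%, 10.4% and 6.22% of the UMIs of the hairpin in H/R-LV-BMAL1 libraries, against 24.6%, 40.9% and 25.7% in H/R-LV-NC libraries. The arms had 209, 389 and 235 UMIs (5p) and 3632, 3351 and 3541 UMIs (3p) in H/R-LV-BMAL1 libraries, against 368, 433 and 435 UMIs (5p) and 1131, 626 and 1260 UMIs (3p) in H/R-LV-NC libraries. The 3p arm, whose seed is that of miR-148b and miR-152, thus gained on the 5p arm in every H/R-LV-BMAL1 library. The log2 ratio changed by -2.48 (standard error 0.375, adjusted p = 0.013 from limma).
miR-185 moved toward 5p. Its 5p arm made up 86.6%, 87.8% and 89.4% in H/R-LV-BMAL1 libraries, against 73.8%, 64.2% and 61.9% in H/R-LV-NC libraries, a change of 1.86 in the log2 ratio (adjusted p = 0.013 from limma). In miR-532, of an X-linked cluster in Clcn5, the 5p arm made up 92.4% ± 1.28 in H/R-LV-BMAL1 and 82.1% ± 4.98 in H/R-LV-NC libraries (SD, n = 3 each).
In these hairpins and in each of the other 14 the groups did not overlap, as in 97 of all 602 hairpins toward the major arm and 57 toward the minor one. miR-149, miR-374b, miR-93, miR-26a-2, miR-20a and miR-26b also moved toward a 5p arm that was already the major one, with changes in the log2 ratio of 1.34, 2.40, 1.17, 1.56, 1.55 and 1.42. miR-203, miR-101a, miR-7058, miR-365-2, miR-652 and miR-25 moved toward a major 3p arm, with -2.70, -2.01, -1.76, -1.49, -1.39 and -0.93. In miR-25 the 5p arm made up 2.27% ± 0.203 in H/R-LV-BMAL1 libraries and 4.29% ± 0.988 in H/R-LV-NC libraries (SD, n = 3 each).
The exceptions were miR-6945 and miR-130b, which changed their major arm. The 5p arm of miR-6945 made up 58.3%, 68.5% and 61.1% in H/R-LV-BMAL1 libraries, against 28.4%, 32.6% and 36.9% in H/R-LV-NC libraries. That of miR-130b made up 25.7%, 31.2% and 27.9% in H/R-LV-BMAL1 libraries, against 48.8%, 58.5% and 75.6% in H/R-LV-NC libraries, where the 3p arm is the one that shares its seed with miR-130a and miR-301. The mature miR-26a-5p and miR-365-3p each come from 2 hairpins, so the ratio of those 2 hairpins mixes loci.

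**Figure D4:**
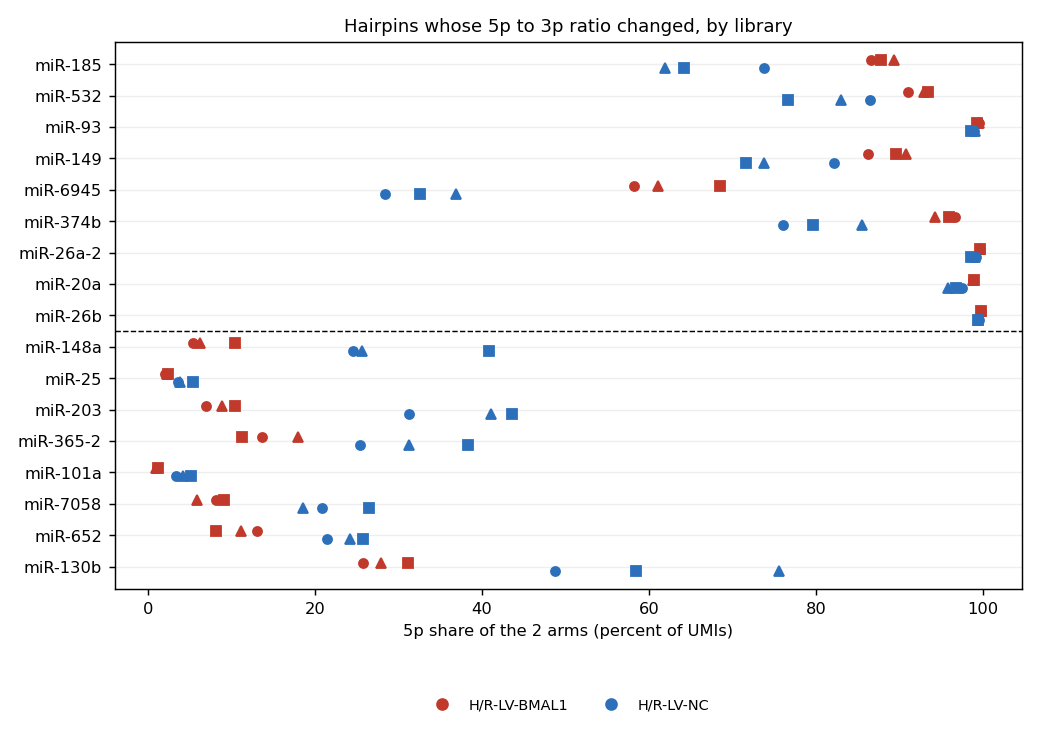
Share of the 5p arm in the UMIs of both arms, in percent, for the 17 hairpins whose ratio changed, 9 toward 5p (above the dashed line) and 8 toward 3p (below it). Each point is a library (circle, library 1, square, library 2, triangle, library 3), and the groups do not overlap in any row. miR-6945 and miR-130b are the rows where most points of the groups lie on opposite sides of 50%.

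Over all hairpins the arms differed by abundance as single miRNAs did. In 50 hairpins whose major arm was at 1000 to 10000 CPM, the median log2 fold change with TMM was 1.04 for the major arm and 0.47 for the minor one, and 5 were called, all toward the major arm. In 418 hairpins whose major arm was at 10 to 100 CPM the medians were -0.10 and -0.17, and 4 were called, 2 of them toward the major arm. Arm by itself showed no such difference, since 5p and 3p miRNAs at 100 CPM and above both had a median of 0.77, with 18 of 123 and 11 of 102 called higher. The arm calls were lost (0) when the limma fit had no intensity trend, and without H/R-LV-BMAL1 3, H/R-LV-NC 2 or H/R-LV-NC 3. There were 1 and 1 without H/R-LV-BMAL1 2, and 7 and 7 without H/R-LV-BMAL1 1.

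Clusters were miRNAs on the same strand with starts within 10 kb of the next and with 2 or more hairpins, positions being those of the table on GRCm38. They numbered 80, and their summed UMIs were higher with H/R-LV-BMAL1 in 27 (33.8%) and lower in 7 (8.75%) by edgeR at an adjusted p under 0.05 with TMM. Under all 3 scalings 11 were higher (13.8%) and the same 7 were lower (8.75%). Without H/R-LV-BMAL1 1 there were 33 and 7, without H/R-LV-BMAL1 3 there were 15 and 7, and without H/R-LV-NC 2 there were 17 and 4.
The 11 held from 0.0310% to 6.63% of all UMIs as a mean of the 6 libraries, and each of the 7 held under 0.1%. The smallest p was that of miR-497a/195a on chromosome 11 (70234730 to 70235121). It held 0.0425%, 0.0410% and 0.0420% of UMIs in H/R-LV-BMAL1 libraries, against 0.0206%, 0.0195% and 0.0204% in H/R-LV-NC libraries, with a log2 fold change of 1.90 (adjusted p = 0.000301 from edgeR). All 3 of its tested members, miR-195a-5p, miR-195a-3p and miR-497a-5p, were called and lay between 1.77 and 1.96.
The 2 clusters of the collagen-repressing miR-29 family were both higher. miR-29b-1/29a on chromosome 6 held 1.40%, 1.29% and 1.06% in H/R-LV-BMAL1 libraries, against 0.863%, 0.594% and 0.711% in H/R-LV-NC libraries, a log2 fold change of 1.57. miR-29a-3p made up 99.1% of it. miR-29b-2/29c on chromosome 1 had 1.32, with members from 0.38 to 1.94.
miR-30e/30c-1 in Nfyc and miR-26a-2/546 in Ctdsp2 had 1.36 and 1.45. miR-26a-5p made up 99.4% of the UMIs of miR-26a-2/546, whose other tested members, miR-26a-2-3p and miR-546, had -0.045 and -2.07. miR-222/221 on the X chromosome, which repress the cell cycle inhibitor p27, held 0.850%, 0.952% and 0.824% in H/R-LV-BMAL1 libraries, against 0.637%, 0.644% and 0.678% in H/R-LV-NC libraries. The log2 fold change came to 1.27 with TMM and 0.42 with total UMIs. miR-183/96/182 on chromosome 6, which is best known from sensory organs, held 2.03%, 2.14% and 2.07% in H/R-LV-BMAL1 libraries, against 1.54%, 1.40% and 1.57% in H/R-LV-NC libraries, with 1.31 and 0.47, and 2 of its 5 tested members were called.
miR-374b/421, miR-143/145a and miR-23b/27b/24-1 had 1.31, 1.24 and 1.19. miR-15a/16-1 held 7.39%, 7.51% and 7.11% in H/R-LV-BMAL1 libraries, against 6.67%, 5.19% and 5.88% in H/R-LV-NC libraries, with miR-16-5p at 99.7% of it. That mature miRNA is also made from miR-15b/16-2 on chromosome 3, and the table counts it once. miR-26a-5p, miR-24-3p, miR-29b-3p and let-7c-5p likewise have 2 loci each in RefSeq. The cluster sums that hold these, or any other miRNA with several loci, are not those of a single locus.

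**Figure D5:**
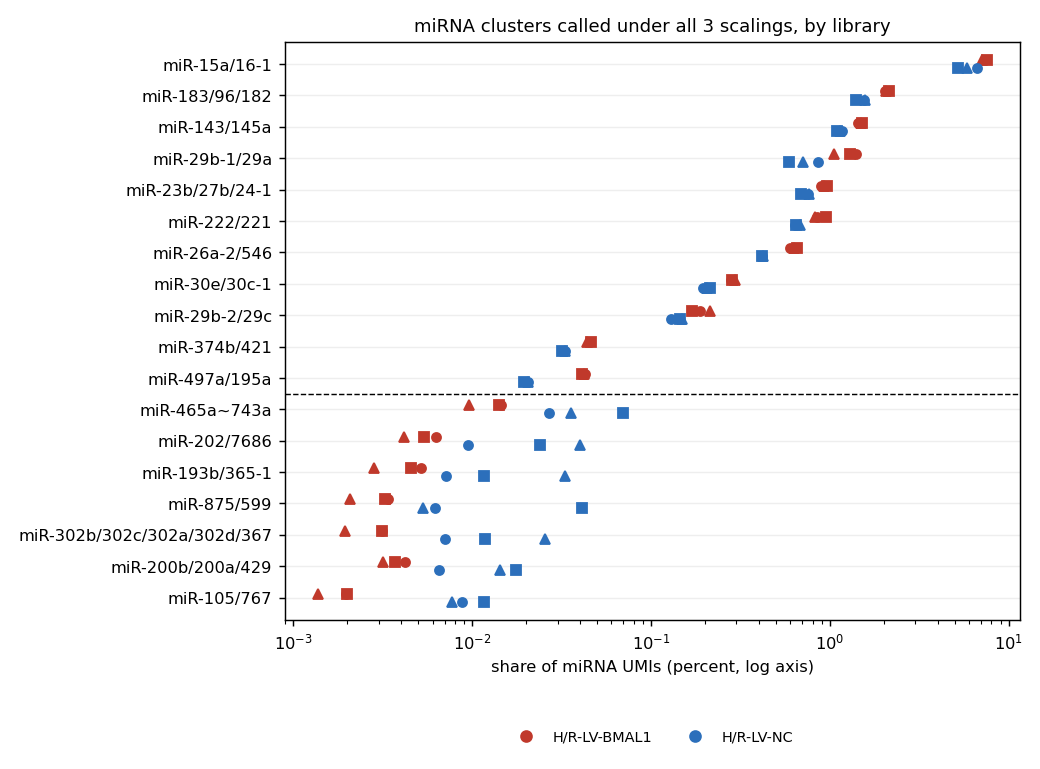
Share of all miRNA UMIs, in percent on a log axis, held by the 11 clusters that were higher (above the dashed line) and the 7 that were lower (below it) in H/R-LV-BMAL1 than in H/R-LV-NC exosomes under all 3 scalings. Each point is a library (circle, library 1, square, library 2, triangle, library 3). The higher clusters reach 7.51% (miR-15a/16-1), and the lower ones are all under 0.1%.

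Of the 8 largest clusters by UMIs, 3 changed sign with the scaling. let-7c-2/let-7b held 16.2%, 17.0% and 15.2% in H/R-LV-BMAL1 libraries, against 16.9%, 15.2% and 17.2% in H/R-LV-NC libraries, with a log2 fold change of 0.81 with TMM (adjusted p = 0.0321 from edgeR) and -0.028 with total UMIs. miR-99b/let-7e/125a on chromosome 17 held 8.20%, 9.49% and 10.8% in H/R-LV-BMAL1 libraries, against 12.5%, 13.1% and 11.8% in H/R-LV-NC libraries. Its share was below that of every H/R-LV-NC library in each H/R-LV-BMAL1 library, and its log2 fold change was 0.50 with TMM (adjusted p = 0.182) and -0.39 with total UMIs (adjusted p = 0.00998), both from edgeR.
Its members did not move as a block, since miR-125a-5p had 0.093 and let-7e-5p 0.97 with TMM. let-7a-1/let-7f-1/let-7d held 10.9%, 11.4% and 11.2% in H/R-LV-BMAL1 libraries, against 10.4%, 9.94% and 11.04% in H/R-LV-NC libraries, and had 0.94 with TMM and 0.092 with total UMIs. miR-106b/93/25, known to promote cell growth, had 1.11 and 0.26, and miR-191/425 had 0.78 and -0.060.
The 7 clusters that were lower under all 3 scalings were miR-105/miR-767 and miR-465a~743a on the X chromosome, miR-302b/302c/302a/302d/367, miR-202/miR-7686, miR-875/599, miR-193b/365-1 and miR-200b/200a/429. miR-105/miR-767 held 0.00197%, 0.00200% and 0.00138% in H/R-LV-BMAL1 libraries, against 0.00879%, 0.0117% and 0.00767% in H/R-LV-NC libraries, a log2 fold change of -1.54 with TMM. The cluster of miR-302, which marks pluripotent cells, held 0.00313%, 0.00313% and 0.00195% in H/R-LV-BMAL1 libraries, against 0.00708%, 0.0118% and 0.0254% in H/R-LV-NC libraries, with -1.62. In H/R-LV-NC 3, its highest library, miR-302c-3p had 153 CPM against at most 7.43 CPM elsewhere, and without that library the cluster had -0.88 and still passed the threshold by edgeR.
miR-465a~743a, a cluster of 17 hairpins expressed in the testis, had -0.87 with TMM and -1.79 with total UMIs, and its 14 tested members had -1.57 to 0.45. The epithelial miR-200b/200a/429 had -0.87 and -1.78. Of its 3p arms, miR-200a-3p and miR-429-3p had 0.72 and -0.50 with TMM, neither of them called, and miR-200b-3p did not pass the filter. These arms had 3 to 35 UMIs in each library of the comparison. In miR-875/599 the groups overlapped on the TMM scale, and H/R-LV-NC 2 held 0.0409% against 0.00532% and 0.00618% in the other H/R-LV-NC libraries. In miR-193b/365-1 the highest share, 0.0330%, was that of H/R-LV-NC 3, where miR-365-1-5p had 259 CPM against at most 45.8 CPM elsewhere, and the other tested members, miR-193b-3p and miR-193b-5p, had 0.062 and -0.16.
Large imprinted and repeat-derived clusters were not called with TMM. miR-379~miR-3072 (38 hairpins) on chromosome 12 had -0.45 (adjusted p = 0.189 from edgeR), and its 59 tested members ran from -1.99 to 2.33. miR-467e~669h and miR-466m~669p on chromosome 2 had 0.0052 and 0.063. With total UMIs all 3 were lower, at -1.33, -0.84 and -0.86 (adjusted p = 0.00454, 0.0153 and 0.0215 from edgeR).

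miRNAs linked to the clock and to the kidney tubule were taken as lists, which were chosen with earlier results of these data known. Their counts are descriptions only. Of 15 clock-linked miRNAs, 7 were called higher and 0 lower, namely miR-30a-5p, miR-29a-3p, miR-27b-3p, miR-219a-5p, miR-155-5p and the neighbours miR-183-5p and miR-182-5p. The median log2 fold change of the list was 1.31, against -0.043 for all tested miRNAs, of which 2.14% were called higher. With TMM on abundant miRNAs 6 were higher and 1 lower, with a median of 0.38. miR-27b-3p, in the same cluster as miR-24-3p, had 3156, 3203 and 3575 CPM with H/R-LV-BMAL1, against 2386, 2311 and 2471 CPM with H/R-LV-NC. The clock-linked list is made of abundant miRNAs for the most part. Of all miRNAs at 1000 to 10000 CPM, 24.2% were called higher with TMM, and their median was 0.92.
miR-132-3p, which light induces in the suprachiasmatic nucleus, had 36.6, 33.3 and 69.3 CPM with H/R-LV-BMAL1, against 26.8, 39.6 and 31.1 CPM with H/R-LV-NC. The groups overlapped in CPM, and it was not called (adjusted p = 0.076 from edgeR with TMM, log2 fold change 0.52 with total UMIs). Without H/R-LV-BMAL1 1 it was called (adjusted p = 0.0225 from edgeR), as were 127 miRNAs in that direction. Leaving out any other single library of the comparison called 0 miRNAs by edgeR with TMM. Of 14 tested kidney tubule miRNAs of a list of 17, 3 were higher and 0 lower, all of the miR-30 family, with a median of 0.77, or -0.16 with TMM on abundant miRNAs, where 3 were higher and 2 lower. miR-30d-5p, the most abundant of the family, had 0.88 (adjusted p = 0.106 from edgeR), and miR-192-5p, which is enriched in kidney tubules, had 1.24 (adjusted p = 0.0712 from edgeR).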

How the data were processed

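The authors deposited UMI counts per mature miRNA and library, and CPM, which scale each count to the UMI total of its library. The CPM given here were computed from the deposited UMI counts. Libraries were made with the QIAseq miRNA kit. Tools named in the submitters' processing notes were Bowtie 1.3.0, cutadapt 2.7 and edgeR (no version). How multiply matching reads were treated and which genome build was used is not stated in the sources used here. Of the 36 miRNAs called higher, 5 had another listed miRNA of nearly the same sequence. Positions equalled RefSeq GRCm38.p6 for 1671 (99.5%) of 1679 miRNAs with a sequence.

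Counts were tested with edgeR 4.0.16 (filterByExpr, TMM, quasi-likelihood), with all 9 libraries in one fit, which left 1682 miRNAs and removed 296. Arm ratios, log2 of (5p UMIs + 0.5)/(3p UMIs + 0.5), were tested with limma 3.58.1 with an intensity trend. Cluster sums used the TMM factors of the miRNA fit, and class shares an exact permutation test over 20 arrangements. Abundance classes came from the mean CPM of LV-NC. All p-values were adjusted by Benjamini-Hochberg, and called means an adjusted p under 0.05. The scripts were tested on simulated data. R 4.3.3, Python 3.11.15 and pandas 2.3.3 were used. Named miRNAs were, in each class, the 3 called of smallest p in each direction with groups that do not overlap on the TMM scale (or the 1 of smallest p). The 10 most abundant, miR-27a-3p and called list members were named too, together with the 10 hairpins of smallest p, the 8 largest clusters and the 10 called clusters of smallest p. Others were named after their values were seen. The members and lists were chosen with earlier results of these data known. Alternatives were other scalings, filters, tools, samples, thinning and the replicate block.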

Additional observations from a re-analysis of the deposited data

How the results depend on the processing

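The numbers of miRNAs called higher and lower depended on the processing. Both were 0 with RLE, with upper quartiles, with no filter, with only the 6 libraries compared and with the replicate block. DESeq2 called 163 and 77. Lower counts were 481 with total UMIs, 554 with TMM on abundant miRNAs (307 with the replicate block as well), 29 with the filter at a mean of 50 UMIs, 8 with limma-voom, 9 with edgeR's robust fit and 12 after thinning. Leaving out a library gave 0 to 127 higher and 0 to 809 lower, counting those with another scaling. With TMM on abundant miRNAs and H/R-LV-BMAL1 1, 2 or 3 or H/R-LV-NC 1, 2 or 3 left out, 34, 4, 16, 23, 13 and 24 were higher and 809, 9, 119, 676, 156 and 355 lower, and total UMIs without H/R-LV-BMAL1 1 gave 39 and 649. Alternatives that combine TMM on abundant miRNAs or total UMIs with a left-out library or the block were chosen after seeing the data. The replicate numbers do not pair the samples, with correlations of -0.158 to 0.132, and the block gave 5 hairpins toward 5p and 6 toward 3p.
The distance between class medians (1.05) stayed within its spread in every alternative run, from 0.691 to 1.45 with a library left out, and the GC difference (0.90) ranged from 0.78 to 1.15 with a library left out. Without H/R-LV-BMAL1 1 it was 1.17 with TMM on abundant miRNAs and 1.15 with total UMIs, and without H/R-LV-NC 1 it was 1.18 with TMM on abundant miRNAs. Class share differences with a library left out were -0.236 to -0.0049 (under 10 CPM), -2.60 to -0.019, -1.08 to -0.399, 1.75 to 2.40 and, at 10000 CPM and above, -1.65 to 1.33 percentage points. Arms fell to 0 and 0 with no intensity trend and 1 and 1 with only the 6 libraries, and to 0 to 7 in each direction with a library left out. Clusters were 13 higher and 29 lower with total UMIs, 11 and 36 with TMM on abundant miRNAs, 4 lower at 50 kb, and 15 to 33 higher and 4 to 8 lower with a library left out.
Clock-linked members higher were 0 in the same 5 settings that gave 0 miRNAs, 11 with DESeq2, and 0 to 11 with a library left out, with 1 lower with total UMIs or TMM on abundant miRNAs and 0 to 1 with a library left out. Kidney tubule members higher were 0 in those settings, 6 with DESeq2 and 0 to 5 with a library left out, with 1 lower with total UMIs, 2 with TMM on abundant miRNAs (1 with the block) and 0 to 5 with a library left out.
Signs turned for abundant miRNAs under other scalings, where the zero point moves. With TMM on abundant miRNAs (and with the block) the log2 fold changes were -0.10 (-0.10) for let-7a-5p, -0.18 (-0.18) for let-7b-5p, -0.057 (-0.057) for let-7c-5p, -0.92 (-0.93) for miR-125a-5p, -0.43 (-0.44) for miR-125b-5p and -0.42 (-0.43) for miR-99b-5p, and with total UMIs -0.011, -0.092, 0.032, -0.83, -0.34 and -0.33. miR-125a-5p had -0.22 with the filter at a mean of 50 UMIs and -0.024 after thinning. With TMM on abundant miRNAs and a library left out in turn, the turned values were, for let-7a-5p -0.093, -0.11, -0.10, -0.12, -0.13 and -0.048, for let-7b-5p -0.19, -0.20, -0.15, -0.17, -0.21 and -0.16, for the log2 fold change of let-7c-5p -0.078, -0.075, -0.018, -0.056, -0.11 and -0.00727, for the log2 fold change of let-7e-5p -0.021, -0.00933 and -0.021, for miR-125a-5p -0.80, -0.89, -1.11, -0.95, -0.80 and -1.01, for miR-125b-5p -0.33, -0.40, -0.57, -0.40, -0.41 and -0.48, for miR-99b-5p -0.31, -0.42, -0.55, -0.42, -0.39 and -0.46. With total UMIs and without H/R-LV-BMAL1 1 they were let-7b-5p -0.089, miR-125a-5p -0.70, miR-125b-5p -0.24, miR-99b-5p -0.21. With TMM itself, miR-125a-5p ranged from -0.38 to 0.36 with a library left out. The clusters let-7c-2/let-7b, miR-191/425 and miR-99b/let-7e/125a had -0.12, -0.15 and -0.48 with TMM on abundant miRNAs and -0.028, -0.060 and -0.39 with total UMIs. The cause was not tested beyond the shift of the median.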

Other observations

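The libraries also held single miRNAs far above their level in every other library. In H/R-LV-BMAL1 1, miR-7062-3p had 3835 CPM against at most 24.9 CPM elsewhere, miR-3102-3p 2478 CPM against 91.5 CPM, and miR-7024-5p 2078 CPM against 135 CPM. In H/R-LV-NC 2, miR-6956-5p had 638 CPM against at most 19.4 CPM, and miR-6952-5p 571 CPM against 18.4 CPM. In H/R-LV-NC 3, miR-344-5p had 281 CPM against 19.8 CPM. In H/R-LV-BMAL1 3, miR-9-5p, miR-9-3p, miR-338-3p and miR-384-5p stood apart together, with miR-338-3p at 174 CPM against 13.1 CPM.

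By chromosome, the 142 tested miRNAs of chromosome 12 had the lowest median with TMM, -0.34, and the 47 of chromosome 13 the highest, 0.45. With total UMIs these medians were -1.18 and -0.29. In the same order 12.7% and 23.4% of these miRNAs were at 100 CPM and above in LV-NC exosomes. Both chromosomes were picked as extremes after their values were seen, and the difference was not tested.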
